A study of Mus musculus with 30 samples.

Results

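Genes of DNA replication and cell division, 38 in number, were followed through RNA sequencing of the mouse colon in a model of colitis-associated cancer. They were taken as the rows of the deposited count table whose symbol equals one of 38 names, and all 38 were found among the 31023 genes of the table and among the 19558 genes tested. They are read here as 20 S-phase genes, 16 mitotic genes and the 2 D-type cyclins Ccnd1 and Ccnd2. In the report, CPM is a gene's count relative to the TMM-scaled size of its library, and a gene "rose" or "fell" only where its adjusted p in edgeR's quasi-likelihood test was under 0.05.

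All mice were male, of the C57BL/6 strain, house-bred and 8 to 12 weeks old, and either wild type (WT) or Smox-/-, that is, carrying a deletion of the gene for spermine oxidase, the enzyme that turns spermine into spermidine. AOM-DSS stands for an intraperitoneal dose of 12.5 mg/kg of the carcinogen azoxymethane and then 3 rounds of 4% dextran sulfate sodium, a colitis-inducing agent, each 5 days long and started on days 5, 26 and 47. Spermidine was supplied at 14 mM in the drinking water over 56 days. The 10 groups, with 3 mice and 3 libraries each, were Smox tumors from AOM-DSS, WT tumors from AOM-DSS with spermidine, Smox and WT non-tumor colon given AOM-DSS with spermidine, Smox and WT non-tumor colon given AOM-DSS alone, Smox and WT colon on spermidine alone, and untreated Smox and WT colon. The tumor groups differ from each other in both genotype and spermidine. Whether a tumor and a non-tumor library came from the same mouse is not given in the sources used here.

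A dividing cell passes through S phase, when the genome is copied, and then through mitosis, when the copies are pulled apart. Copying starts where the MCM helicase is loaded by Cdc6 and Cdt1 and switched on with Cdc45 and the GINS complex. Polymerases then follow, held to DNA by the sliding clamp Pcna and fed by ribonucleotide reductase and thymidylate synthase. D-type cyclins and then cyclin E with their kinases release the E2F factors, which switch on many S-phase genes, whereas the genes of mitosis peak later and are often controlled by the NF-Y and DREAM complexes. In the colon, division is normally restricted to the lower crypt, and cells stop dividing as they move up and differentiate.

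The promoters of 3 S-phase genes and 3 mitotic genes are shown to let the sequence side of this order be seen. Each line is the 150 bases upstream of the RefSeq transcription start on GRCm38.p6, written along the strand of the gene. Capitals mark the words of 3 motifs found on either strand, which are the E2F words TTTCCCGC, TTTCGCGC, TTTGCCGC and TTTGGCGC, the NF-Y word CCAAT, and the CHR words TTTGAA and TTCGAA, which the DREAM complex can bind. Capitals may join where words overlap, as they do once in Mcm6. The genes shown are examples and do not stand for all members. All 3 S-phase genes shown hold an E2F word in this stretch, whereas Pcna, Rrm1, Rrm2, Tyms, Ccne1 and E2f1, among others, do not. The RefSeq start used lies 294 bases from the nearest start of the reference annotation for E2f1 and 134 bases for Pcna. The stretch of E2f1 therefore lies inside the annotated gene, as does most of that of Pcna.
Mcm6 promoter, chr1:128359706-128359855, minus strand: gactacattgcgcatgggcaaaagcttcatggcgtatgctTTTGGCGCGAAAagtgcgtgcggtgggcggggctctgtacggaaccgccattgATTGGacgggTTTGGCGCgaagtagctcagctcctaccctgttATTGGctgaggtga
Cdc6 promoter, chr11:98908001-98908150, plus strand: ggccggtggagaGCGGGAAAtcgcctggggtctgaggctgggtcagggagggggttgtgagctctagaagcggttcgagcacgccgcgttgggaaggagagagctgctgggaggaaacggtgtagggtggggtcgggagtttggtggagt
Pola1 promoter, chrX:93632156-93632305, minus strand: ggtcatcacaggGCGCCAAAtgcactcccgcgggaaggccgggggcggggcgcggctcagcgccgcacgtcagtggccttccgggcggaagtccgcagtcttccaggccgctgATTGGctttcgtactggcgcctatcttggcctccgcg
Cdk1 promoter, chr10:69352913-69353062, minus strand: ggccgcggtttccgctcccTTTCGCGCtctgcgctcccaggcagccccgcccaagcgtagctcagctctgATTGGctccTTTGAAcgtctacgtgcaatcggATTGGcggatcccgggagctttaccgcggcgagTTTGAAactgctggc
Cdc20 promoter, chr4:118437344-118437493, minus strand: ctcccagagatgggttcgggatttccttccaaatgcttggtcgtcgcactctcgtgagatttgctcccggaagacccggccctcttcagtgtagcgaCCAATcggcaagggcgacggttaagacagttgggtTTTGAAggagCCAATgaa
Top2a promoter, chr11:99024190-99024339, minus strand: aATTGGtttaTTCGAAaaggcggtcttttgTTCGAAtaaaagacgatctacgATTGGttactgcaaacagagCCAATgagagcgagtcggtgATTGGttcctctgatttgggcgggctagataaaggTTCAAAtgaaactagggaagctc

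The Mcm6 promoter holds E2F words at 110, 106 and 47 bases upstream of the start and CCAAT words at 57 and 14 bases upstream. Cdc6 and Pola1 each hold an E2F word 138 bases upstream. Cdk1, the kinase that drives entry into mitosis, was the 1 mitotic gene with an E2F word, at 131 bases upstream, and it also holds CCAAT words at 80 and 48 bases and CHR words at 71 and 15 bases upstream. In Cdc20, an activator of the anaphase-promoting complex, a CHR word lies 18 bases upstream between CCAAT words at 53 and 8. Top2a, which encodes the topoisomerase that untangles sister chromosomes, holds CCAAT words at 149, 98, 78 and 58 bases and CHR words at 140, 120 and 23 bases upstream.

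RefSeq promoters from 250 bases before to 50 bases after the start were at hand for 29 of the 38 members, and the other 9 (Mcm4, Gins1, Gins2, Ccne2, Ccna2, Aurkb, Tpx2, Ccnd1 and Ccnd2) were not searched. Members were counted as genes, each with a word in any of its promoters, of which Mcm7 had 2, whereas the background counts single promoters. An E2F word stood in 8 of 16 S-phase genes (50%) and 1 of 13 mitotic genes (7.69%), against 2.265% of all 32851 promoters in the table. A CHR word stood in 3 of 16 S-phase genes (18.8%) and 10 of 13 mitotic genes (76.9%), against 19.2% of all promoters. CCAAT was found in 10 S-phase genes (62.5%) and 12 mitotic genes (92.3%), against 37.4% of all promoters. These are matches of letters and no binding was measured. For E2f1 and Pcna, whose starts used lie inside the annotated gene, words further upstream would be missed.

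Library totals ran from 33060607 to 81011304 counts. All 10 epithelial marker genes were detected in every library. The Smox gene itself overlapped between the genotypes, at 18.6 to 68.7 CPM in the 15 libraries labelled Smox and 25.1 to 169 CPM in the 15 WT libraries, and the deleted stretch is not given in the sources used here. Smox against WT, it was lower in tumors (log2 -1.30, edgeR adjusted p = 0.0357) and passed in none of the matched non-tumor comparisons, at -1.06 on spermidine, -0.65 after AOM-DSS, -0.29 after AOM-DSS with spermidine and 0.22 untreated. WT untreated replicate 3 carried 8440 CPM of 7 summed skeletal muscle genes, against 29.03 and 35.81 CPM in its group mates. Smox AOM-DSS plus spermidine non-tumor replicate 1 stood above its group mates in all 36 S-phase and mitotic genes. Since the tissue is bulk, fewer dividing cells and less RNA per dividing cell cannot be told apart.

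The S-phase genes were higher in Smox tumors than in non-tumor colon of AOM-DSS-treated Smox mice, and no other of the 15 pairwise comparisons had more members called. Of the 20 genes 13 rose and none fell, where 11.4% of all genes tested rose and 13.2% fell. The log2 fold change was positive for all 20, with a median of 1.30 beside a median of -0.01 over all genes tested. In 18 of the 20 genes every tumor library stood above every non-tumor library, which was the case for 20.9% of all genes.

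The helicase gene Mcm2 (chromosome 6, 88883474 to 88898780 on GRCm38) had 131, 74.0 and 66.0 CPM in Smox tumors, against 37.8, 26.8 and 24.1 CPM in Smox non-tumor colon. Every tumor library was above every non-tumor library, and the first tumor was the highest. The fold change was 3.05, or 1.61 ± 0.47 on the log2 scale (SE, n = 3 per group, edgeR adjusted p = 0.0196). Of the other subunits of the helicase, Mcm7 had 166, 97.4 and 85.3 CPM in tumors, against 50.1, 42.6 and 34.5 CPM in non-tumor colon. It rose by 1.46 ± 0.46 (log2, SE, edgeR adjusted p = 0.0275), again with no overlap between the groups. Mcm3, Mcm4 and Mcm5 rose by 1.44, 1.31 and 1.59 on the log2 scale, while Mcm6 just missed the threshold at 1.34 (edgeR adjusted p = 0.0502).

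Most factors that load and start the helicase rose too. Cdc6 rose by 1.51 and Cdt1, its partner in loading, by 1.20 on the log2 scale. Cdc45 had 21.7, 12.2 and 13.1 CPM in Smox tumors, against 6.95, 5.53 and 6.34 CPM in non-tumor colon, and it rose by 1.32 ± 0.43 (log2, SE, edgeR adjusted p = 0.0298). Gins1, a subunit of GINS, had 14.3, 9.64 and 8.62 CPM in tumors, against 4.40, 3.80 and 4.12 CPM in non-tumor colon. The lowest tumor had more Gins1 than the highest non-tumor library, and the log2 fold change was 1.40 ± 0.42 (SE, edgeR adjusted p = 0.0223). For Gins2 of the same complex the log2 fold change was 0.97 (edgeR adjusted p = 0.142).

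Pcna (chromosome 2, 132249162 to 132253314 on GRCm38) had the smallest adjusted p of the S-phase genes. It had 181, 125 and 124 CPM in Smox tumors, against 74.7, 63.0 and 65.3 CPM in Smox non-tumor colon, a 2.12-fold difference (log2 1.08 ± 0.27, SE, edgeR adjusted p = 0.00934). The polymerase genes Pola1, which encodes the catalytic subunit of primase-bound polymerase alpha, and Pold1, which encodes that of polymerase delta, rose by 1.53 and 1.02 on the log2 scale. Rrm1, the large subunit of ribonucleotide reductase, had 150.5, 105 and 112 CPM in tumors, against 59.4, 46.4 and 44.5 CPM in non-tumor colon. It rose by 1.29 ± 0.43 (log2, SE, edgeR adjusted p = 0.0352), and all 3 tumors lay above all 3 non-tumor libraries.

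The 7 S-phase genes that did not pass were Mcm6, Gins2, Rrm2, Tyms, Ccne1, Ccne2 and E2f1. Rrm2, the small subunit of the reductase, had a log2 fold change of 1.02 (edgeR adjusted p = 0.0817), Ccne1 of 0.98 (0.0881) and E2f1, the transcription factor, of 1.11 (0.0651). The smallest differences were those of Ccne2 at 0.71 and of Tyms, thymidylate synthase, at 0.46, and these were the 2 genes whose groups overlapped. Tyms had 47.4, 31.2 and 39.7 CPM in Smox tumors, against 33.4, 26.1 and 26.3 CPM in Smox non-tumor colon.

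The count of S-phase genes that rose rested on single libraries. It was 0 without Smox tumor replicate 1, 1 without Smox tumor replicate 2, and 1, 1 and 7 without Smox non-tumor replicates 2, 3 and 1, while it was 14 without Smox tumor replicate 3. Pcna was the gene that passed in each fit with a single call. With no filter on low counts 5 S-phase genes rose.

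**Figure D1:**
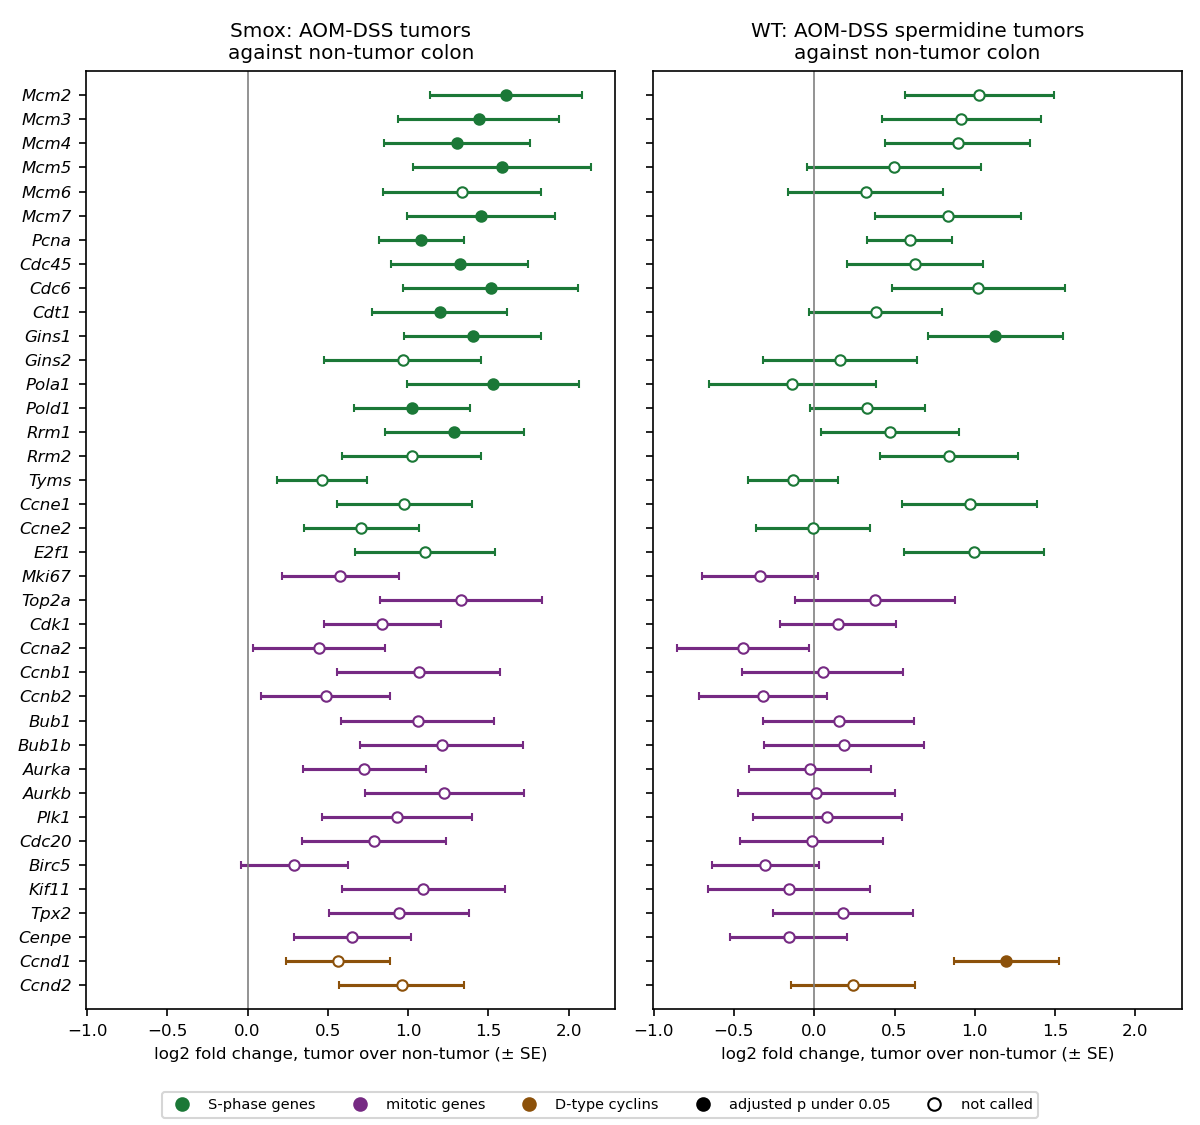
Log2 fold change of each of the 38 genes (points, horizontal axis) with its standard error (bars), in Smox tumors against Smox non-tumor colon on the left and in WT tumors against WT non-tumor colon on the right, 3 libraries per group. Filled points passed an adjusted p of 0.05. The S-phase genes lie right of 0 in the left panel, and 13 are filled, whereas 1 S-phase gene and Ccnd1 are filled in the right panel.

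None of the 16 mitotic genes passed the edgeR test in Smox tumors, although all 16 had a positive log2 fold change, with a median of 0.89. At an unadjusted p under 0.05 there were 8 of the 16, beside 7780 of all 19558 genes tested. In 13 of the 16 every tumor library stood above every non-tumor library, which was the case for 20.9% of all genes. DESeq2 called 2 (Top2a, adjusted p = 0.0287, and Aurkb, adjusted p = 0.0420). A model of only these 2 groups called 13, and the model without WT untreated replicate 3 and Smox AOM-DSS plus spermidine non-tumor replicate 1 called 6. The left-out Smox library stands apart in the mitotic genes themselves, so the count of 6 is no independent check of them. The share of all genes that each of these other models called was not computed, so their counts have no background beside them. The cause of these differences was not tested.

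Since no mitotic gene was called, the 4 given in full were chosen after their values were seen, as the 3 with the smallest adjusted p and Mki67, the gene of the Ki-67 antigen used to mark cycling cells. Top2a (chromosome 11, 98992943 to 99024189 on GRCm38), whose promoter is printed above, had 251, 193 and 201 CPM in Smox tumors, against 99.8, 78.7 and 77.7 CPM in Smox non-tumor colon. The groups lay far apart, with a log2 fold change of 1.33 ± 0.51 (SE, edgeR adjusted p = 0.0564). Aurkb, the kinase of the chromosomal passenger complex, had 47.2, 37.2 and 35.4 CPM in tumors, against 20.8, 16.1 and 14.2 CPM in non-tumor colon (log2 1.23, edgeR adjusted p = 0.0711). Bub1b, a spindle checkpoint protein, had 64.4, 48.6 and 50.2 CPM in tumors, against 28.7, 20.94 and 20.95 CPM in non-tumor colon (log2 1.21, edgeR adjusted p = 0.0798). Both were without overlap between the groups.

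Mki67 (chromosome 7, 135689784 to 135716361 on GRCm38) showed a smaller difference. It had 219.7, 195 and 241 CPM in Smox tumors, against 172, 137 and 131 CPM in Smox non-tumor colon, with a log2 fold change of 0.58 ± 0.36 (SE, edgeR adjusted p = 0.244). The mitotic cyclins were uneven, at 1.07 for Ccnb1, 0.49 for Ccnb2 and 0.45 for Ccna2 on the log2 scale, and the last 2 overlapped between the groups. Birc5, the survivin subunit of the passenger complex, had the smallest value at 0.29 and also overlapped. The checkpoint kinase gene Bub1, the spindle motor Kif11 and its partner Tpx2 had 1.06, 1.10 and 0.94. For the kinases Aurka, Plk1 and Cdk1 the log2 fold changes were 0.73, 0.93 and 0.84, for Cdc20 0.79 and for Cenpe, a kinetochore motor, 0.65, and all of these were without a call.

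Neither D-type cyclin passed in Smox tumors. Ccnd1 had 252, 195 and 273 CPM in Smox tumors, against 198, 128 and 162 CPM in Smox non-tumor colon (log2 0.56 ± 0.32, SE, edgeR adjusted p = 0.197), and the groups overlapped. Ccnd2 had 542, 518 and 710.1 CPM in tumors, against 356, 299.6 and 254 CPM in non-tumor colon, without overlap (log2 0.96 ± 0.39, SE, edgeR adjusted p = 0.0701). DESeq2 called Ccnd2.

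WT tumors, which grew under AOM-DSS with spermidine, were compared with WT non-tumor colon of the same treatment, and here 2 of the 38 genes rose, where 16.9% of all genes tested rose and 17.5% fell. They were Gins1 and Ccnd1. The S-phase genes had a median log2 fold change of 0.61, with 17 positive and 3 negative, and in 10 of 20 all tumors lay above all non-tumor libraries, beside 28.3% of all genes. The mitotic genes had a median of 0.00, with 8 positive and 8 negative, no gene at an unadjusted p under 0.05, none called by DESeq2 and none without overlap.

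The S-phase count of 1 in WT tumors was 3 with DESeq2, 10 in a model of only these 2 groups, 5 without both atypical libraries (WT untreated replicate 3 and Smox AOM-DSS plus spermidine non-tumor replicate 1) and 0 with no filter on low counts. How many of all genes these other fits called was not computed, and the left-out Smox library stands apart in the S-phase genes themselves. Gins1 had 12.2, 12.2 and 14.5 CPM in WT tumors, against 8.40, 5.29 and 4.10 CPM in WT non-tumor colon, a 2.18-fold difference (log2 1.13 ± 0.42, SE, edgeR adjusted p = 0.0419). The highest non-tumor library was still below the lowest tumor. It was no longer called when any 1 of the libraries was left out other than WT non-tumor replicate 1. Ccnd1 (chromosome 7, 144929931 to 144939925 on GRCm38) had 209, 215 and 325 CPM in WT tumors, against 128, 85.7 and 113 CPM in WT non-tumor colon. It rose 2.29-fold (log2 1.20 ± 0.33, SE, edgeR adjusted p = 0.00800), with the groups apart, and the adjusted p was 0.0501 without WT tumor replicate 3.

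Several other S-phase genes leaned the same way in WT tumors without passing. Mcm2 had 84.3, 97.4 and 114 CPM in WT tumors, against 68.4, 38.7 and 37.8 CPM in WT non-tumor colon (log2 1.03 ± 0.47, SE, edgeR adjusted p = 0.0905). Pcna had 170.2, 191 and 219.7 CPM in tumors, against 159, 115 and 110.2 CPM in non-tumor colon (log2 0.59, edgeR adjusted p = 0.0856). In both genes the first non-tumor library was well above its group mates and yet below all tumors. Rrm1 overlapped, at 107, 130.1 and 144 CPM in tumors and 127, 73.5 and 75.0 CPM in non-tumor colon. Pola1 had a log2 fold change of -0.14, Tyms of -0.13 and Ccne2 of -0.01.

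The mitotic genes of WT tumors lay among the values of WT non-tumor colon. Mki67 had 160.3, 237 and 256 CPM in WT tumors, against 353, 189 and 284 CPM in WT non-tumor colon (log2 -0.34, edgeR adjusted p = 0.495). Top2a had 179.6, 248 and 298 CPM in tumors, against 249.6, 137 and 170.5 CPM in non-tumor colon (log2 0.38, edgeR adjusted p = 0.583). Aurkb and Bub1b, with log2 fold changes of 0.01 and 0.18, also overlapped. WT non-tumor replicate 1 was the highest of its group in all 36 S-phase and mitotic genes.

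The difference between the tumor effects was tested as such, as the effect in Smox tumors minus that in WT tumors. It was positive for all 20 S-phase genes (median 0.61, range 0.01 to 1.67) and all 16 mitotic genes (median 0.87, range 0.60 to 1.25), and no member passed, where 0.0102% of all genes tested were higher. Pola1, at 1.67 ± 0.75 (log2, SE, edgeR adjusted p = 0.399), was the 1 gene at an unadjusted p under 0.05. DESeq2 called none. A difference in the response of the members between the tumor groups was therefore not shown, and genotype and spermidine cannot be told apart in it.

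Set directly against each other, the tumor groups gave no call among the members. Smox tumors and WT tumors had a median log2 difference of -0.10 over the S-phase genes and 0.01 over the mitotic genes. None of the 38 had an unadjusted p under 0.05 and none was called by DESeq2, beside 0.0358% of all genes higher and 0.0256% lower in Smox tumors.

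**Figure D2:**
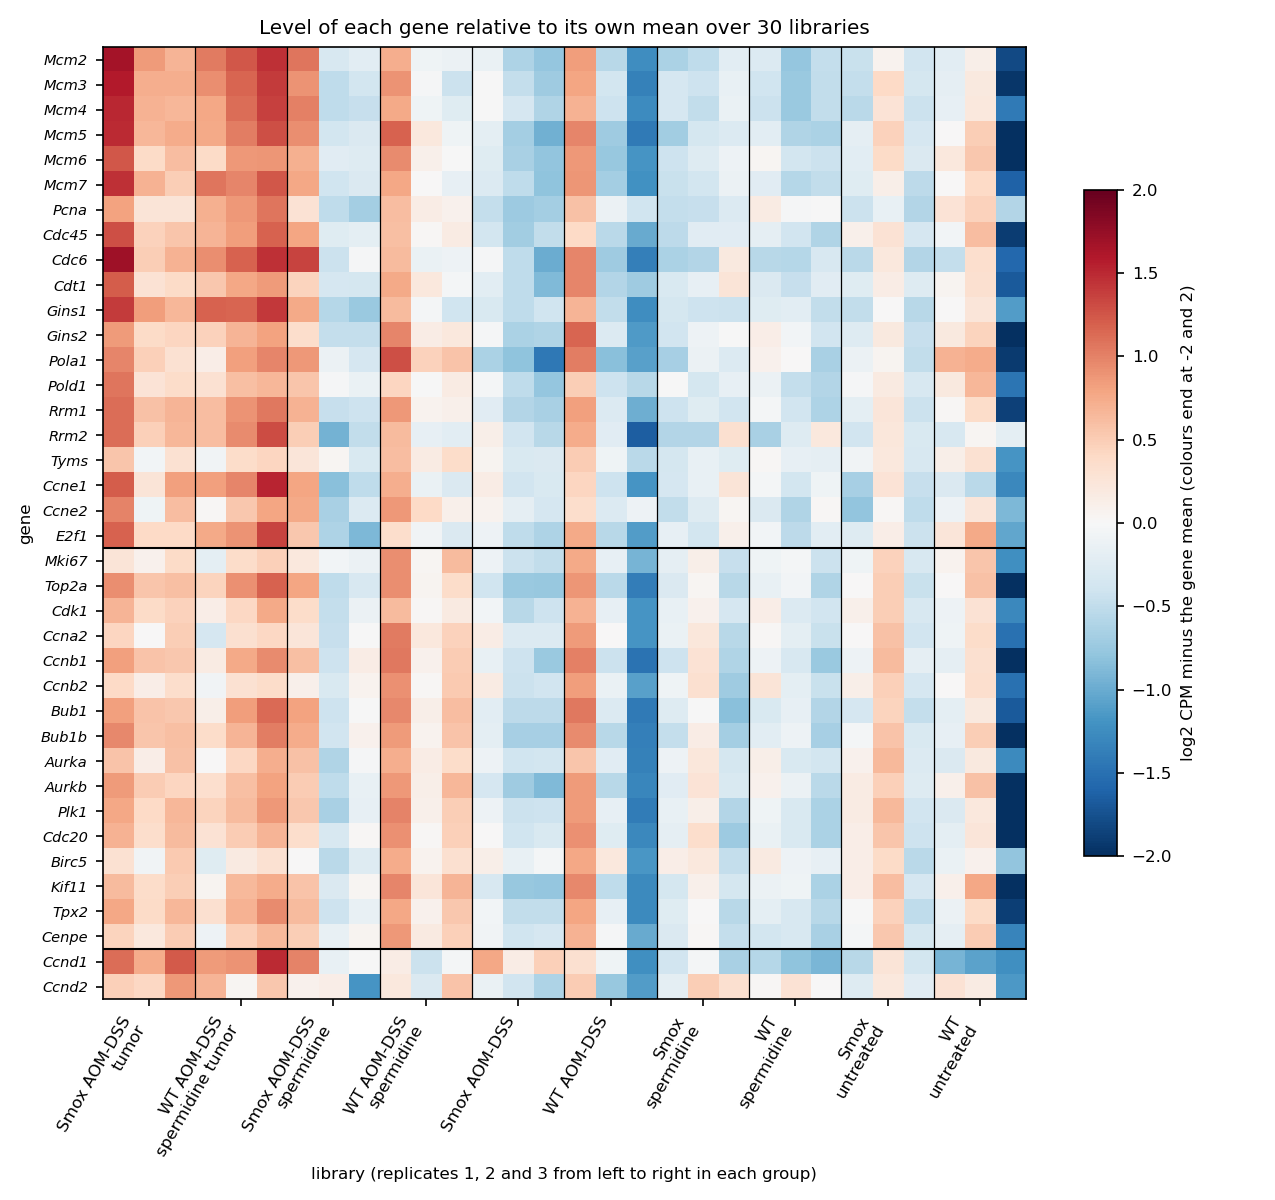
Level of each of the 38 genes (rows, S-phase, mitotic and D-type cyclin genes apart) in each of the 30 libraries (columns by group), as log2 CPM minus the mean of that gene over the libraries. The tumor columns are high across the S-phase rows, while single non-tumor libraries such as WT AOM-DSS replicate 1 are high across both blocks and WT untreated replicate 3 is low across both.

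Averaged over the list, the S-phase genes reached 5.24 ± 0.42 log2 CPM in Smox tumors and 5.38 ± 0.25 in WT tumors (SD, n = 3 each). The 8 non-tumor groups had means between 4.05 ± 0.28 in Smox colon given AOM-DSS and 4.76 ± 0.43 in WT colon given AOM-DSS with spermidine. Tumors held ranks 1, 2, 3, 7, 8 and 9 among the 30 libraries, so single non-tumor libraries came between them. On the mitotic list the tumors held ranks 3, 4, 5, 7, 11 and 13, and the highest 2 libraries were WT non-tumor ones, replicate 1 with AOM-DSS plus spermidine and replicate 1 with AOM-DSS alone. The mean mitotic level was 5.84 ± 0.16 log2 CPM in Smox tumors and 5.81 ± 0.33 in WT tumors, beside 5.84 ± 0.39 in WT non-tumor colon given AOM-DSS with spermidine and 4.98 ± 0.22 in Smox non-tumor colon given AOM-DSS.

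**Figure D3:**
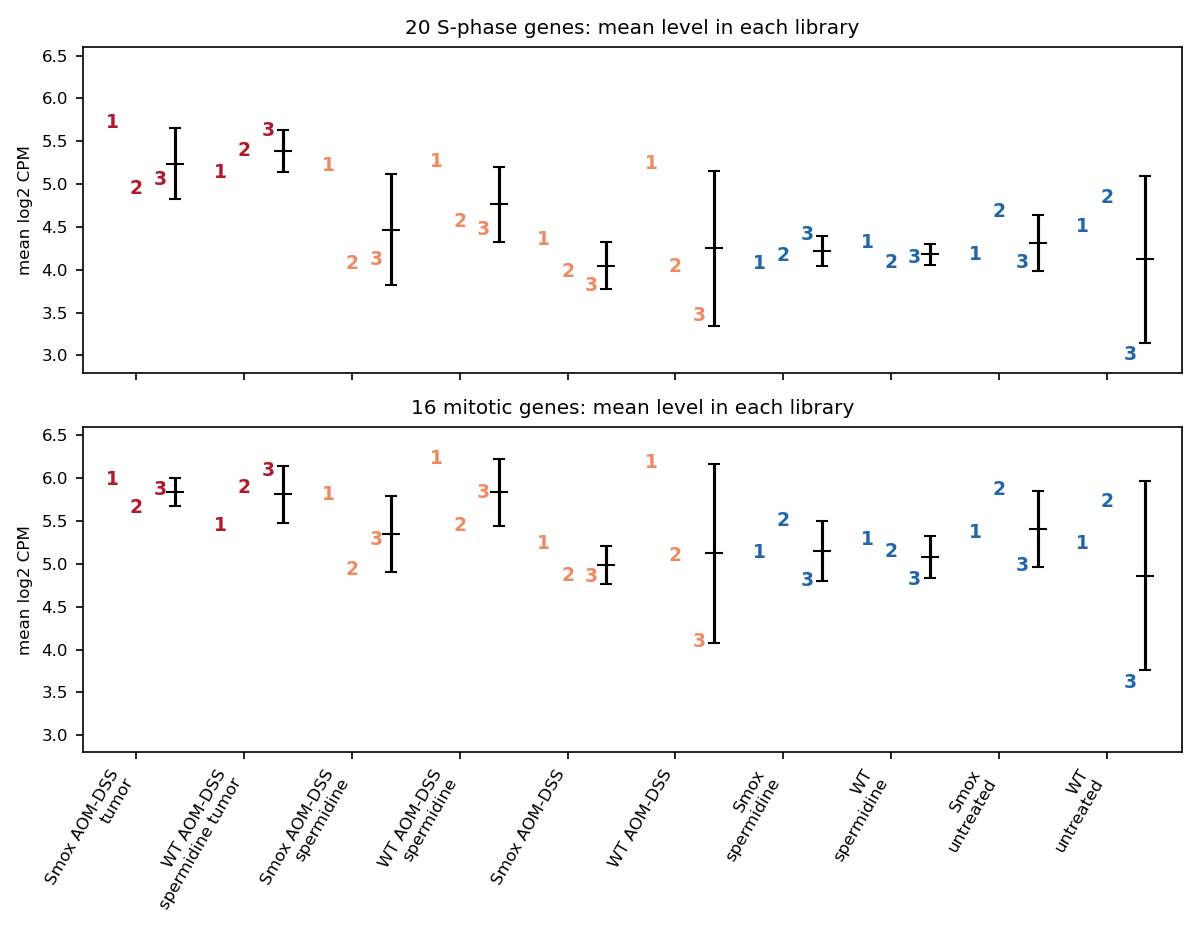
Mean log2 CPM of the 20 S-phase genes and of the 16 mitotic genes in each library, by group (numbers are replicates, bars are mean ± SD, n = 3). The S-phase means of both tumor groups, 5.24 and 5.38, lie above those of all 8 other groups, whereas the mitotic mean of WT non-tumor colon given AOM-DSS with spermidine is 5.84, as in Smox tumors.

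The balance between the lists was also taken in each library. The S-phase mean minus the mitotic mean ran from -0.82 to -0.27 in the 6 tumor libraries (median -0.48) and from -1.37 to -0.40 in the 24 non-tumor libraries (median -0.92). These ranges overlap. As levels are not scaled to gene length, the sign of this value has no meaning of its own and only its change between libraries can be read.

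**Figure D4:**
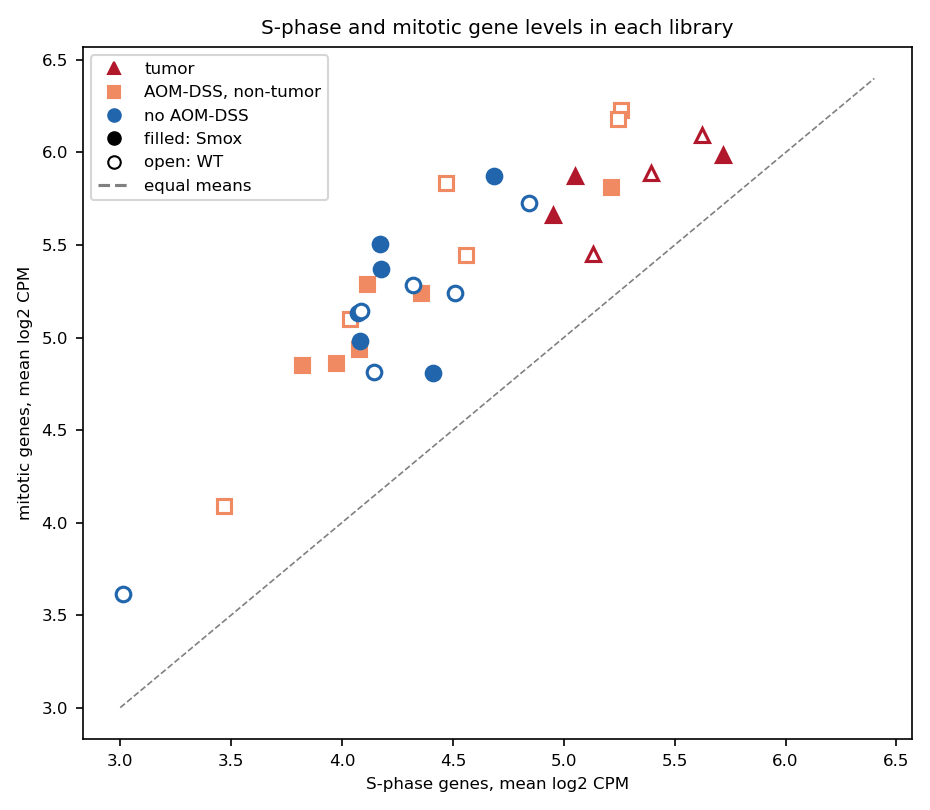
Mean log2 CPM of the S-phase genes (horizontal axis) and of the mitotic genes (vertical axis) in each of the 30 libraries, with tumors as triangles, AOM-DSS non-tumor colon as squares, colon without AOM-DSS as circles, Smox filled and WT open, and a dashed line of equal means. The triangles sit nearer the dashed line than most squares and circles, and the S-phase minus mitotic median is -0.48 in tumors and -0.92 elsewhere.

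Over the 6 tumor and 24 non-tumor libraries, members differed in how far the tissues were apart. For Gins1 2 non-tumor libraries reached the lowest tumor, and the same number did for Ccnd1, which ran from 195 to 325 CPM (median 234) in tumors and from 49.3 to 230.4 CPM (median 97.3) in non-tumor colon. It was 3 libraries for Mcm2, Mcm7 and Rrm2, and 5 for Pcna and Top2a. At the other end, 17 non-tumor libraries reached the lowest tumor for Mki67, and 18 for Ccna2 and for Birc5. Mki67 ran from 160.3 to 256 CPM in tumors (median 228) and from 78.6 to 353 CPM (median 173) in non-tumor colon.

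Markers of cell types differed between tumor and non-tumor colon in both tumor comparisons. The summed CPM of 6 crypt base genes was 900 to 1431 in Smox tumors, against 353 to 465 in Smox non-tumor colon, and 1161 to 1285 in WT tumors, against 494 to 574 in WT non-tumor colon, and 4 of 6 rose in each. The sum of 7 differentiated colonocyte genes was 438 to 579 in Smox tumors, against 3057 to 4201 in Smox non-tumor colon, and 537 to 675 in WT tumors, against 2308 to 3560 in WT non-tumor colon, with 6 and 5 of 7 lower. Of the 10 epithelial genes 1 rose and 3 fell in Smox tumors (summed CPM 13081 to 18397, against 17232 to 24508 in Smox non-tumor colon), and 1 rose and 7 fell in WT tumors (12096 to 15526, against 20775 to 22327 in WT non-tumor colon). All 7 smooth muscle genes and all 5 B cell genes fell in WT tumors, where 4 of 5 neutrophil genes rose, while 1 of 7 smooth muscle genes and no B cell or neutrophil gene passed in Smox tumors. The B cell sum was 0.395, 0.376 and 0.721 CPM in WT tumors, against 2.21, 59.5 and 0.921 CPM in WT non-tumor colon. Only non-tumor replicate 2 was thus far above the tumors. In Smox that sum was 0.508 to 5.04 CPM in tumors, against 12.1 to 33.6 CPM in non-tumor colon. Genes of squamous epithelium summed to 50.7 to 615 CPM in Smox tumors, against 2.46 to 11.3 CPM in Smox non-tumor colon, with 4 of 6 higher. In WT tumors they summed to 41.6 to 92.2 CPM, against 1.52 to 9.82 CPM in WT non-tumor colon, and none of the 6 passed. Of 6 genes of enteric neurons and glia 5 fell in Smox tumors, and 3 fell and 1 rose in WT tumors, where 2 of 5 macrophage genes also rose. Of the B cell genes up to 2 were at 0 in a WT tumor library, and of the crypt base genes up to 1 was at 0 in a WT non-tumor library. The part of these cell types in the differences of the 38 genes was not tested.

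Outside tumors, none of the 38 genes passed between colon with and without AOM-DSS. In WT colon given AOM-DSS against untreated WT colon the S-phase median was 0.16 (15 of 20 positive) and the mitotic median 0.26 (16 of 16 positive), beside 1.76% of all genes higher and 4.68% lower. In Smox colon the same comparison gave -0.25 (2 of 20 positive) and -0.42 (0 of 16 positive), beside 0.00511% of all genes higher and 0.0716% lower. At an unadjusted p under 0.05 there was 1 member in WT, Ccnd1, and none in Smox, and DESeq2 called none in either. The positive direction in WT rested on untreated replicate 3, the library rich in skeletal muscle genes. The untreated WT libraries averaged 4.51, 4.85 and 3.01 log2 CPM over the S-phase genes, against 5.25, 4.04 and 3.47 after AOM-DSS. On both lists untreated replicates 1 and 2 lay above AOM-DSS replicates 2 and 3.

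Ccnd1 was the member with the smallest adjusted p after AOM-DSS alone. It had 145, 109.6 and 49.3 CPM in WT colon given AOM-DSS, against 61.2, 55.3 and 49.8 CPM in untreated WT colon (log2 0.87 ± 0.33, SE, edgeR adjusted p = 0.0996), and the third library lay below all untreated ones. In the fit without that library, 1 of the 2 D-type cyclins passed. In Smox colon Ccnd1 had 198, 128 and 162 CPM after AOM-DSS, against 78.8, 139 and 90.0 CPM untreated, with overlap (log2 0.66, edgeR adjusted p = 0.393).

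With spermidine in both arms, the members leaned higher after AOM-DSS. WT colon given AOM-DSS with spermidine against WT colon on spermidine alone had a median of 0.66 for the S-phase genes and 0.83 for the mitotic genes, and all 36 were positive. The 3 libraries lay above the other 3 in 13 of 20 and 13 of 16 genes, where 17.3% of all genes did so, and no member passed in edgeR or DESeq2, where 0.435% of all genes rose and 1.48% fell. At an unadjusted p under 0.05 there were 2, Ccne2 and Cenpe. Top2a had 249.6, 137 and 170.5 CPM after AOM-DSS with spermidine, against 118, 127 and 87.2 CPM on spermidine alone (log2 0.75, edgeR adjusted p = 0.406). A model of only these 2 groups called 1 S-phase gene, 8 mitotic genes and 1 D-type cyclin, and its share over all genes was not computed.

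In Smox colon the same comparison had medians of 0.39 (19 of 20 positive) and 0.18 (15 of 16 positive), with 1 member at an unadjusted p under 0.05 and none called by edgeR or DESeq2, beside 0.0102% of all genes in each direction. Its first treated library was set apart from the rest. Mcm2 had 86.2, 32.9 and 35.7 CPM in Smox colon given AOM-DSS with spermidine, against 26.5, 29.01 and 35.52 CPM on spermidine alone. The other 2 treated libraries lay within or near the range on spermidine alone.

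With spermidine alone no member passed in either genotype. The medians were -0.12 and 0.00 for the S-phase and mitotic genes in WT and -0.12 and -0.26 in Smox, with no member at an unadjusted p under 0.05 and none called by DESeq2. Over all genes tested, none rose in either genotype and 0.00511% fell in WT. Mki67 had 174, 179 and 136 CPM in WT colon on spermidine, against 193, 269.8 and 78.6 CPM in untreated WT colon, so that the treated libraries lay inside the untreated range. In Smox colon it had 162, 199 and 133 CPM on spermidine, against 173, 253 and 148 CPM untreated.

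Where spermidine was added to AOM-DSS, again no member passed. In WT non-tumor colon the medians were 0.32 and 0.52, with all 20 and all 16 positive, none at an unadjusted p under 0.05 and none called by DESeq2. In Smox non-tumor colon they were 0.51 (20 of 20 positive) and 0.38 (15 of 16 positive), with 1 member, Pola1, at an unadjusted p under 0.05 and none called by DESeq2. No gene of those tested was called in either comparison, so 0% of all genes stand beside these counts. The spread was wide in these groups, since Mki67 in WT non-tumor colon had 353, 189 and 284 CPM with spermidine, against 313, 164 and 96.2 CPM after AOM-DSS alone.

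Genotype alone also left the members without a call. Untreated Smox against untreated WT colon had medians of 0.06 and 0.31, with 1 member at an unadjusted p under 0.05, beside 2.63% of all genes higher and 3.32% lower. That member was Ccnd1, with 78.8, 139 and 90.0 CPM in untreated Smox colon, against 61.2, 55.3 and 49.8 CPM in untreated WT colon. The groups lay apart (log2 0.89 ± 0.33, SE, edgeR adjusted p = 0.0939), and DESeq2 called it. The mitotic median rested on untreated WT replicate 3, whose mitotic genes averaged 3.62 log2 CPM. Its group mates had 5.24 and 5.72, and the untreated Smox libraries 5.37, 5.87 and 4.98. In the same comparison 3 of 5 neutrophil, 2 of 5 macrophage, 3 of 6 squamous and 1 of 6 crypt base genes were higher and 4 of 6 genes of enteric neurons and glia were lower in Smox. Squamous genes summed to 4.04 to 2612 CPM in untreated Smox colon, against 2.18 to 24.2 CPM in untreated WT colon, and the part of these cell types in the difference of Ccnd1 was not tested. On spermidine alone the medians were 0.05 and 0.08, with no member at an unadjusted p under 0.05 and none called by DESeq2, beside 0.0307% of all genes higher and 0.0511% lower.

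Under AOM-DSS, the S-phase and mitotic genes leaned lower in Smox than in WT non-tumor colon, and no member passed. The medians were -0.38 (1 of 20 positive) and -0.34 (0 of 16 positive) after AOM-DSS alone, beside 0.0358% of all genes higher and 0.0307% lower. The S-phase genes averaged 5.25, 4.04 and 3.47 log2 CPM in these WT libraries, against 4.36, 3.97 and 3.82 in Smox. The mitotic genes averaged 6.18, 5.10 and 4.09 in WT, against 5.24, 4.86 and 4.85 in Smox. After AOM-DSS alone the lean rested on WT replicate 1, and WT replicate 3 was below every Smox library on both lists. At an unadjusted p under 0.05 there were Pcna, which was lower in Smox, and Ccnd1, which had the opposite direction with a log2 difference of 0.68. Ccnd1 had 198, 128 and 162 CPM in Smox colon given AOM-DSS, against 145, 109.6 and 49.3 CPM in WT colon given AOM-DSS, with overlap. With spermidine the medians were -0.23 (2 of 20 positive) and -0.46 (0 of 16 positive), with none at an unadjusted p under 0.05, beside 0.169% higher and 0.0818% lower. DESeq2 called none in either. These comparisons share libraries with those of the tumors, since Smox colon given AOM-DSS alone and WT colon given AOM-DSS with spermidine are also the baselines of the tumors.

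Pcna needs its own reading across genotypes, because its processed pseudogene Pcna-ps2 shares sequence with it. The transcripts have 565 sequence words of 31 bases in common, which make up 23.3% of those of Pcna and 75.2% of those of Pcna-ps2, so reads of either could be assigned to the other. Pcna-ps2 had 8.31 to 22.5 CPM in the 15 Smox libraries and 0 to 0.153 CPM in the 15 WT libraries. It made up 10.8 to 14.1% of the sum of both in Smox libraries and 0 to 0.111% in WT libraries, and it was higher in Smox in all 5 comparisons of genotypes (edgeR adjusted p from 5.49e-07 to 1.93e-06). Unlike the Smox gene, it separated the labelled genotypes without overlap.

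For Pcna itself the log2 difference of Smox from WT was negative in each of these 5 comparisons, at -0.43 in tumors, -0.49 untreated, -0.44 on spermidine, -0.71 under AOM-DSS alone and -0.54 under AOM-DSS plus spermidine, and none passed. With the counts of Pcna-ps2 added to those of Pcna the differences were -0.27, -0.31, -0.25, -0.51 and -0.36, and none passed. Which of the values reflects the Pcna transcript was not tested. Whether the differences of Pcna and Pcna-ps2 between the genotypes come from the loss of Smox itself was also not tested. The tumor result held for the sum, which rose by 1.06 in Smox tumors (log2, edgeR adjusted p = 0.0102), beside 0.60 in WT tumors (edgeR adjusted p = 0.0842). Other pseudogene copies of members held few counts over the 30 libraries, such as 204 for Gm7856, a copy of Cdc20, and 28 for Gm8416 and 15 for Ccnb1-ps, copies of Ccnb1.

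**Figure D5:**
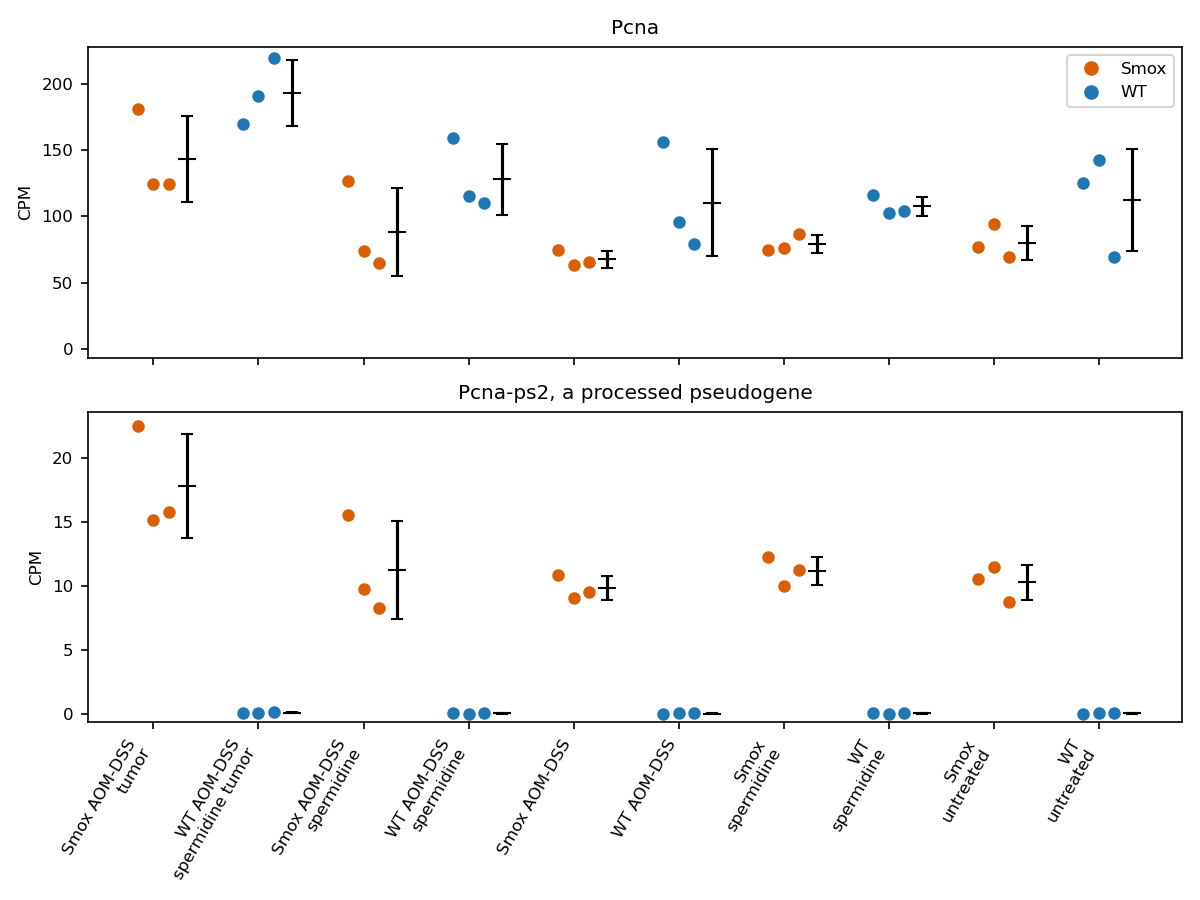
CPM of Pcna and of its pseudogene Pcna-ps2 in each library by group, with bars for mean ± SD (n = 3). Pcna-ps2 is at 8.31 to 22.5 CPM in every Smox library and at 0 to 0.153 CPM in every WT library, whereas Pcna overlaps between the genotypes and is highest in the tumor groups.

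Within several groups 1 mouse led or trailed nearly all S-phase and mitotic genes, and in others the lists parted. WT colon given AOM-DSS had replicate 1 as the highest library in all 20 S-phase and all 16 mitotic genes, and the median ratio of its highest to its lowest library was 3.81 and 4.31. That library also had the highest crypt base sum of its group (864 CPM, beside 413 and 275) and the lowest epithelial sum (14948 CPM, beside 23664 and 23111). Untreated WT colon had replicate 3, the library rich in skeletal muscle genes, as the lowest in 19 of 20 S-phase and all 16 mitotic genes, with median ratios of 3.89 and 4.19. In Smox colon given AOM-DSS with spermidine replicate 1 was the highest in all 36, with median ratios of 2.37 and 1.91, and it had the highest crypt base sum (981 CPM, beside 511 and 435). In Smox tumors replicate 1 led all 20 S-phase genes (median ratio 1.78) but 11 of 16 mitotic genes (median ratio 1.28). Smox colon on spermidine alone went opposite ways, since replicate 3 was the highest in 15 of 20 S-phase genes and the lowest in all 16 mitotic genes, where replicate 2 was the highest. In WT colon given AOM-DSS with spermidine the lowest library was replicate 3 for 13 of 20 S-phase genes and replicate 2 for all 16 mitotic genes, while replicate 1 was the highest in all 36.

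Part of the other genes of DNA replication rose in Smox tumors, and few did in WT tumors. Of a list of 40 that holds no member, 13 rose in Smox tumors, where 11.4% of all genes rose, and the median was 0.74. In WT tumors 3 of the 40 rose, a smaller share than the 16.9% of all genes that rose there, and the median was 0.40. None fell in either. The difference between the tumor effects was called for none of the 40 (smallest edgeR adjusted p = 0.386), beside 0.0102% of all genes higher. The clamp loader subunits Rfc1, Rfc2 and Rfc3 and the polymerase epsilon subunit Pole2 had the smallest adjusted p in Smox tumors. Rfc3 had 28.9, 26.5 and 24.4 CPM in Smox tumors, against 12.2, 11.2 and 12.9 CPM in Smox non-tumor colon (log2 1.13 ± 0.31, SE, edgeR adjusted p = 0.0137). In WT tumors it had 42.9, 32.9 and 41.3 CPM, against 24.1, 16.3 and 15.2 CPM in WT non-tumor colon (log2 1.07 ± 0.31, SE, edgeR adjusted p = 0.0103). Rfc1, Rfc2 and Pole2 rose by 0.76, 0.64 and 1.44 in Smox tumors, and the other 2 that rose in WT tumors were Rfc2 (0.47) and Orc6 (0.78), a subunit of the origin recognition complex, whose calls in WT were lost in 5 and 6 of 12 alternatives. The Smox count was 0 without tumor replicate 1, 2 without tumor replicate 2, 3 without non-tumor replicate 2 and 3 without non-tumor replicate 3. The WT count was 0 without non-tumor replicate 3, and 1 without each of non-tumor replicate 2, tumor replicate 1 and tumor replicate 3. DESeq2, a model of only the groups compared and the model without both atypical libraries called 21, 22 and 24 of the 40 in Smox tumors, and the last 2 of these called 8 and 6 in WT tumors. The shares of all genes called by these models were not computed.

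Among 42 other mitosis genes 1 rose and 1 fell in Smox tumors, with a median of 0.95, and none rose and 1 fell in WT tumors, with a median of 0.04. These counts are smaller shares than those of all genes, of which 11.4% rose and 13.2% fell in Smox tumors and 16.9% rose and 17.5% fell in WT tumors. Pttg1, the securin that holds separase back until anaphase, was the gene that fell in both. It had 12.8, 11.7 and 13.5 CPM in Smox tumors, against 19.7, 22.5 and 23.5 CPM in Smox non-tumor colon (log2 -0.79, edgeR adjusted p = 0.0151). In WT tumors it had 14.3, 12.4 and 12.6 CPM, against 19.5, 19.1 and 23.7 CPM in WT non-tumor colon (log2 -0.66, edgeR adjusted p = 0.0222). In each pair all tumors lay below all non-tumor libraries. Cdc25b, a phosphatase that activates Cdk1, rose by 0.97 in Smox tumors (edgeR adjusted p = 0.0214), and its log2 fold change in WT tumors was -0.05. Its call was lost without Smox tumor replicate 1, Smox tumor replicate 2 or Smox non-tumor replicate 2, with an adjusted p of up to 0.0963 in edgeR. For Pttg1 the call was lost in Smox without tumor replicate 1, tumor replicate 2 or non-tumor replicate 3, and in WT without tumor replicate 2, tumor replicate 3 or non-tumor replicate 3. As with the mitotic members, the count in Smox tumors depended on the model, at 7 with DESeq2, 35 with only the groups compared and 24 without both atypical libraries. For these models too, the share of all genes called was not computed. In the main model the difference between the tumor effects was called for none of the 42 (smallest edgeR adjusted p = 0.355), beside 0.0102% of all genes higher.

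Cdk4 and Cdk6, kinases that act before S phase, rose in both tumor groups. Of 6 G1 kinases, cyclins and factors on the list, 4 rose and 1 fell in Smox tumors, and 3 rose and 1 fell in WT tumors, beside 11.4% of all genes higher and 13.2% lower in Smox tumors and 16.9% and 17.5% in WT tumors. Cdk4, a partner of the D-type cyclins, had 252, 212 and 128 CPM in Smox tumors, against 81.6, 71.4 and 65.7 CPM in Smox non-tumor colon (log2 1.44, edgeR adjusted p = 0.00945). In WT tumors it had 268, 208 and 269 CPM, against 124, 88.9 and 88.1 CPM in WT non-tumor colon (log2 1.31, edgeR adjusted p = 0.00762). Cdk6, the other such kinase, had 56.6, 59.1 and 22.3 CPM in Smox tumors, against 18.3, 12.5 and 11.4 CPM in Smox non-tumor colon (log2 1.71, edgeR adjusted p = 0.00536), and it rose by 1.09 in WT tumors (edgeR adjusted p = 0.0222). The Cdk6 call was lost in 3 of 12 alternatives in WT tumors and kept in all 12 in Smox tumors. For Cdk4 it was lost in 1 of 12 in Smox tumors and kept in all 12 in WT tumors.

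E2f3 rose by 0.67 in Smox tumors and 0.65 in WT tumors, and Cdk2, the partner of cyclin E, rose by 0.79 in Smox tumors and had a log2 fold change of 0.24 in WT tumors. Ccnd3, the third D-type cyclin, went the other way, falling by 0.65 in Smox tumors (edgeR adjusted p = 0.0163) and by 0.59 in WT tumors (edgeR adjusted p = 0.0161). In Smox it was named after its values were seen, and its call there was lost in 5 of 12 alternatives. The E2f3 call was lost in 2 of 12 alternatives in each tumor group, and the Cdk2 call in 1 of 12 in Smox tumors. Without Smox tumor replicate 1 the count of this list was 1 in Smox, with Cdk6 as the gene that passed, and in WT it was 2 without tumor replicate 3 or without non-tumor replicate 2. The difference between the tumor effects was called for none of the 6 (smallest edgeR adjusted p = 0.487), beside 0.0102% of all genes higher.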

How the data were processed

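Per the labels' protocols, total RNA of the colon was purified with RNeasy columns and made into directional NEBNext Ultra II libraries. Per the submitters' processing notes, fastp, Salmon and DESeq2 were used with build GRCm38, and versions are not given in the sources used here. The deposited table holds estimated counts per gene as whole numbers for 30 libraries.

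From it, filterByExpr (minimum count 10, minimum total 15) kept 19558 genes, TMM scaled the libraries, and edgeR 4.0.16 in R 4.3.3 fitted 1 quasi-likelihood model with 1 mean per group (20 residual degrees of freedom, robust). The Benjamini-Hochberg adjustment of p-values ran over all 19558 genes. Log2 CPM used a prior count of 2. The 15 comparisons and 1 difference of differences were repeated with RLE scaling, no filter, DESeq2 1.42.0, a minimum of 1 CPM in 3 libraries, only the groups compared, without a pair of atypical libraries, and without each library in turn. The tests were tried on simulated data. The members and lists were chosen with earlier results of these data known. Values in every library are given for called members with the smallest adjusted p, Pcna, Ccnd1 and Ccnd2, and up to 4 called genes of each other list are named. Promoters came from RefSeq on GRCm38.p6 and shared 31-base words from the transcripts of the reference annotation. Figures were drawn with matplotlib 3.10.9 in Python 3.11.15.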

Additional observations from a re-analysis of the deposited data

How the results depend on the processing

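No paired analysis was possible because the labels give the libraries numbers from 1 to 30 without repeats, so no number is shared between groups. In Smox tumors 5 S-phase genes rose with no filter on low counts, where the count was 13; the mitotic count of 0 became 1 with a filter of 1 CPM in 3 libraries, 2 with DESeq2, 13 with only the groups compared and 6 without the 2 atypical libraries (WT untreated replicate 3 and Smox AOM-DSS plus spermidine non-tumor replicate 1), and the D-type cyclin count of 0 became 1 with each of the last 3. In WT tumors the S-phase count of 1 became 0 with no filter, 3 with DESeq2, 10 with only the groups compared and 5 without the atypical libraries. In WT colon after AOM-DSS with spermidine against spermidine alone, a model of only the groups compared called 1 S-phase gene, 8 mitotic genes and 1 D-type cyclin, and in untreated Smox against WT colon DESeq2 called 1 D-type cyclin. Leaving out 1 library gave 0 to 14 S-phase genes in Smox tumors, 0 to 3 S-phase genes and 0 to 1 D-type cyclins in WT tumors, and 0 to 1 D-type cyclins in WT colon after AOM-DSS against untreated. The share of all genes called was computed for the main model only, so the counts of the alternatives have no background beside them. The left-out Smox library is described above by its high levels of the members themselves. WT AOM-DSS replicate 1, which also led its group in all S-phase and mitotic genes, was kept. The counts without the atypical libraries are therefore no independent check of the members. The cause of these shifts was not tested. Over the 12 alternatives the log2 fold changes in Smox tumors were positive in 240 of 240 values of S-phase genes and 192 of 192 of mitotic genes, and in WT tumors 210 were positive and 30 negative for S-phase genes and 91 and 101 for mitotic genes. No value of a member that was called changed sign. Whether deeper libraries would change the counts was not tested.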

Other observations

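Genes that hold the cell cycle back were followed beside the 38 genes, as a list of 16 inhibitors, pocket proteins and repressor E2Fs. In Smox tumors 1 rose and 3 fell, with a median log2 fold change of -0.22, beside 11.4% of all genes higher and 13.2% lower. In WT tumors 2 rose and 6 fell, with a median of -0.42, beside 16.9% higher and 17.5% lower. Rb1, the retinoblastoma protein that holds E2F factors in check, had 20.6, 26.0 and 25.2 CPM in Smox tumors, against 34.8, 35.4 and 38.4 CPM in Smox non-tumor colon (log2 -0.60, edgeR adjusted p = 0.0116). In WT tumors it had 25.1 to 27.3 CPM, against 47.7 to 50.9 CPM in WT non-tumor colon (log2 -0.89, edgeR adjusted p = 5.01e-04). Cdkn1b, the kinase inhibitor p27, fell by 0.47 in Smox tumors (edgeR adjusted p = 0.0481) and by 1.07 in WT tumors (edgeR adjusted p = 3.21e-04). Its call in Smox tumors was lost with no filter on low counts and without any 1 of the 6 libraries, with an adjusted p of up to 0.168 in edgeR, and in WT tumors it was kept in all 12 alternatives. E2f5, a repressor E2F, fell by 0.61 in Smox tumors and Rbl2, a pocket protein of the DREAM complex, by 0.67 in WT tumors. The count of this list in Smox tumors was 0 without tumor replicate 1, 1 without non-tumor replicate 3, and 2 without tumor replicate 2, non-tumor replicate 1 or non-tumor replicate 2, and in WT it was 4 without tumor replicate 3, non-tumor replicate 2 or non-tumor replicate 3. The difference between the tumor effects was called for none of the 16 (smallest edgeR adjusted p = 0.318), beside 0.0102% of all genes higher.

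A pair of inhibitors went up where these went down. Cdkn1c, the inhibitor p57, had 103, 43.9 and 66.3 CPM in WT tumors, against 4.33, 4.69 and 4.48 CPM in WT non-tumor colon (log2 3.98 ± 0.74, SE, edgeR adjusted p = 6.56e-04). In Smox tumors it was scattered, with 31.9, 111 and 7.06 CPM, against 11.7, 15.4 and 10.3 CPM in Smox non-tumor colon (log2 2.001 ± 0.68, SE, edgeR adjusted p = 0.0356), and it was not called when any 1 of the other libraries than Smox tumor replicate 3 was left out. Cdkn2a, which encodes p16 and p19Arf and was named after its values were seen, was at 3.52, 0.605 and 11.9 CPM in WT tumors, against 0.0817, 0.0626 and 0.0317 CPM in WT non-tumor colon, and it rose (edgeR adjusted p = 0.0133). Its call in WT tumors was lost in 3 of 12 alternatives. In Smox it had 6.97, 7.19 and 23.1 CPM in tumors, against 1.10, 0.570 and 0.474 CPM in non-tumor colon (edgeR adjusted p = 0.0650).

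Orc1, the largest subunit of the origin recognition complex, was the gene of the 40 other replication genes that rose outside tumors, in 1 comparison. It had 13.8, 14.0 and 6.58 CPM in WT non-tumor colon after AOM-DSS, against 4.42, 4.22 and 1.90 CPM in untreated WT colon (log2 1.70 ± 0.37, SE, edgeR adjusted p = 0.0180). The call was lost without WT untreated replicate 3 (adjusted p = 0.105) or WT AOM-DSS replicate 2 (0.102) and in a model of only these groups (0.194) or without both atypical libraries (0.0903). The other 3 comparisons of AOM-DSS with its absence had all libraries above as well, with log2 fold changes of 1.09 in Smox, 1.37 in WT on spermidine and 1.11 in Smox on spermidine (edgeR adjusted p = 0.197, 0.0534 and 0.168). In tumors it lay in the range of the AOM-DSS non-tumor libraries, with 13.6, 6.84 and 11.3 CPM in Smox tumors and 12.9, 12.5 and 19.2 CPM in WT tumors.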
